A study of Homo sapiens with 12 samples.

Results

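Actin and the proteins that act on it were followed through 10 genes of a table of 57353 rows: the actins ACTA1, ACTB and ACTG1, the monomer binder PFN1, and the long actin binders ACTN1, ACTN4, FLNA, VCL, MYH9 and DIAPH1. All 10 were found by symbol and all 10 passed the filter on low counts. They were picked as actin genes with earlier results of these data known, as were the gene lists below. Counts of calls among them therefore describe chosen genes and are no independent support. ACTA1 and DIAPH1 were chosen by their CPM levels, which stood out across the treatments and fractions of these libraries. The values of those 2 genes are for that reason described without a test. The cells were HepG2, an established human hepatocellular carcinoma line labelled as wild type, with no second line among the 12 libraries. Cultures received sorafenib, a multikinase inhibitor, at 10 µM for 12 h, or its vehicle DMSO, and lysates of all cultures were made with cycloheximide, which holds ribosomes on mRNA. Each lysate was spread on a sucrose gradient, and 2 pools were sequenced: a light fraction of low-molecular complexes, free ribosomal subunits and single ribosomes, and a polysome fraction. There were 3 cultures per treatment, each giving 1 light and 1 polysome library, so that each of the 4 groups holds 3 libraries. Unfractionated RNA was not analysed here, so more of an mRNA in the cell and more of it on ribosomes cannot be told apart, and neither can fewer cells holding an mRNA and less of it per cell.

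Actin monomers assemble into filaments that carry cell shape, adhesion and contraction. Profilin (PFN1) binds monomers and feeds them to growing filament ends, and formins such as DIAPH1 nucleate filaments and elongate them. The alpha-actinins ACTN1 and ACTN4 and filamin A (FLNA) crosslink filaments, vinculin (VCL) ties them to adhesions, and MYH9 is the heavy chain of a nonmuscle myosin II motor. ACTB and ACTG1 are the cytoplasmic actins of nonmuscle cells, whereas ACTA1 is the actin of skeletal muscle. Actins and profilin are short proteins, and the 6 other proteins are long. Many genes of this system are transcribed by SRF with its coactivators of the MRTF family, which monomeric actin holds back.

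SRF binds a sequence named the CArG box, and the stretches that hold it upstream of 3 of these genes are shown so that the values of genes with and without it can be set side by side. The sequences are from RefSeq, assembly GRCh38.p14, minus strand, the last 120 bases before each start, 5′ to 3′, with the box in capitals. They lie at chr1:229434095-229434214 (ACTA1), chr17:81512800-81512919 (ACTG1) and chrX:154374635-154374754 (FLNA).
ACTA1: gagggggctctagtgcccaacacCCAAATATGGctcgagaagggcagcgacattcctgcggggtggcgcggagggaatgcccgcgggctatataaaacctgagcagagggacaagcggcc
ACTG1: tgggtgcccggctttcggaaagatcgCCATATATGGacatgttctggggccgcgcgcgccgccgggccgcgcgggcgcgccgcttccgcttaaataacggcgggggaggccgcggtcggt
FLNA: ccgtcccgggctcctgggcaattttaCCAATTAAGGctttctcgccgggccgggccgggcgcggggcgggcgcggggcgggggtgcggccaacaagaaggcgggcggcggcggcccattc
The first base of the box lies 97 bases before the start of ACTA1, 94 before that of ACTG1 and 94 before that of FLNA. Promoters of 9 of the 10 genes were matched, ACTB not. Over the 250 bases before the start, searched on both strands, ACTN1 held a box at 1 of its 4 starts, 171 bases before it, and ACTN4, VCL, MYH9, DIAPH1 and PFN1 held none. Of 35116 promoters searched the same way, 407 (1.16%) held one. A match is a description of the letters and not a bound site.

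Total counts per library ran from 7387602 to 11955977 in the vehicle light fraction, 511065 to 4989312 in the sorafenib light fraction, 4769383 to 10584699 in the vehicle polysome fraction and 10011614 to 13336689 in the sorafenib polysome fraction. Sorafenib light libraries 1 and 2 are the shallow ones, with 2060384 and 511065 counts, and replicates of that group correlated at 0.797 to 0.934 against 0.951 to 0.990 in the other groups. All 17 hepatocyte markers passed the filter, with a summed level of 10961 to 19367 CPM in the vehicle light, 34258 to 43205 in the sorafenib light, 8782 to 15877 in the vehicle polysome and 30539 to 39744 in the sorafenib polysome fraction. CPM here stands for a gene's counts relative to the depth of its library after TMM scaling, which adjusts library sizes so that most genes match between libraries. Of 6 endothelial and 6 leukocyte markers, 1 and 3 passed the filter. In the same order of groups, the endothelial sums were 0.61 to 1.24, 3.27 to 35.5, 0.62 to 1.24 and 0.46 to 1.28 CPM. The leukocyte sums were 98.1 to 305, 231 to 370, 369 to 537 and 275 to 389 CPM. Over the 12 libraries LYZ had 33931 counts, CD68 2079, CD14 165, PTPRC 24, MS4A1 9 and CD3E 7.

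On polysomes, every actin and every long binder was higher after sorafenib, and profilin was lower. The polysome comparison asked which mRNAs differed between treatments among those engaged by several ribosomes. In the edgeR quasi-likelihood test with Benjamini-Hochberg adjustment over 14955 genes, 7 of the 8 genes tested rose and 1 fell. Of all genes, 20.9% rose and 28.8% fell (49.7% called in all), and their median log2 difference was -0.26. The rises on the log2 scale ran from 1.87 for ACTB to 2.58 for MYH9. How many of all genes have treated and vehicle libraries that do not overlap was not counted in either fraction. Statements on overlap below therefore only describe single genes.

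**Figure D1:**
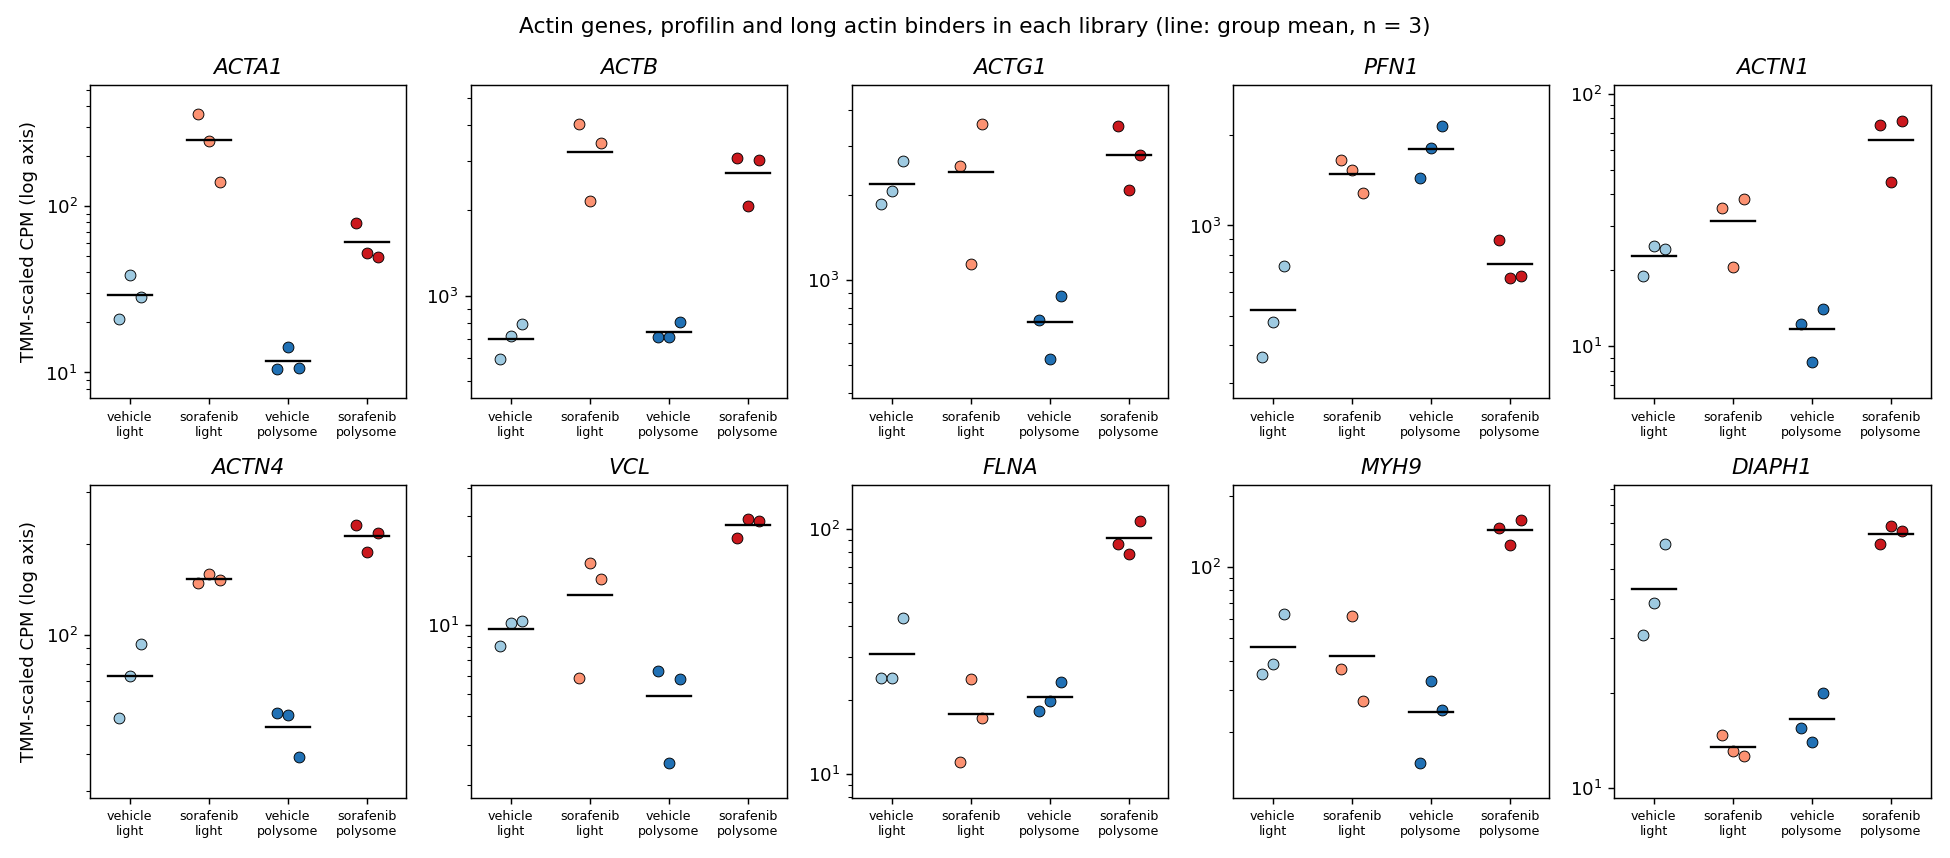
TMM-scaled CPM (log axis, its range set for each gene) of the 10 genes in each of the 12 libraries; points are libraries, lines are means of 3 libraries, and colours mark the 4 groups. In the polysome fraction all sorafenib points lie above the vehicle points, except for PFN1, where all lie below. The share of all genes with such a separation was not counted.

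ACTB was at 715, 713 and 806 CPM in vehicle polysome libraries 1, 2 and 3 and at 3054, 2079 and 3011 CPM in the sorafenib polysome libraries. Its rise was 1.87 ± 0.30 in log2 units (± SE, 3 libraries a group; edgeR adjusted p = 6.26e-05). ACTG1 was at 723, 526 and 877 CPM with vehicle and at 3508, 2081 and 2773 CPM with sorafenib in that fraction. Every treated library of both cytoplasmic actins was above every vehicle library, and ACTG1 rose by 1.98 ± 0.37 (SE; edgeR adjusted p = 0.000274). ACTA1, the muscle actin, stood at 10.5, 14.2 and 10.6 CPM with vehicle and 79.5, 52.6 and 49.4 CPM with sorafenib, a fitted log2 difference of 2.37 ± 0.32 (SE), given without a test. The groups of ACTA1 did not overlap either.

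The long binders were higher as well. FLNA went from 18.0, 19.8 and 23.7 CPM in the vehicle polysome libraries to 86.4, 79.1 and 108 CPM in the sorafenib polysome libraries, a rise of 2.15 ± 0.27 in log2 units (± SE, 3 libraries a group; edgeR adjusted p = 5.94e-06). The lowest treated library held more than 3 times the highest vehicle library. ACTN1 went from 11.7 ± 2.72 to 65.6 ± 18.4 CPM (SD, n = 3 each), a log2 rise of 2.47 ± 0.27 (SE; edgeR adjusted p = 2.06e-06). ACTN4, its close relative in epithelial cells, went from 49.2 ± 8.90 to 213 ± 22.0 CPM (SD, n = 3 each), a log2 rise of 2.11 ± 0.24 (SE; edgeR adjusted p = 2.70e-06). The adhesion linker VCL went from 4.88 ± 2.09 to 27.3 ± 2.73 CPM (SD, n = 3 each), a log2 rise of 2.43 ± 0.32 (SE; edgeR adjusted p = 1.06e-05). The myosin heavy chain MYH9 went from 24.2 ± 9.10 to 143 ± 17.6 CPM (SD, n = 3 each), a log2 rise of 2.58 ± 0.31 (SE; edgeR adjusted p = 5.46e-06). The formin DIAPH1 was at 15.5, 14 and 20.1 CPM with vehicle and at 60.1, 68.4 and 66.1 CPM with sorafenib, a log2 difference of 1.96 ± 0.25 (SE), given without a test. Its groups did not overlap.

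Profilin ran the other way. PFN1 was at 1441, 1809 and 2142 CPM in the vehicle polysome libraries and at 894, 669 and 677 CPM in the sorafenib polysome libraries. It fell by 1.27 ± 0.29 in log2 units (± SE, 3 libraries a group; edgeR adjusted p = 0.00157), and every treated library was below every vehicle library. Without the filter on low counts this fall was -0.86 and did not pass (adjusted p = 0.114). Over 19 alternative settings the number of rises stayed at 7, and without both shallow sorafenib light libraries it was 7 rises and 1 fall.

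In the light fraction the 10 genes did not move together. The 8 tested genes split into 3 that rose (ACTB, ACTN4 and PFN1), 1 that fell (FLNA) and 4 that did not pass the edgeR test, against 11.7% of all genes that rose and 17.7% that fell (29.4% in all). ACTB was at 597, 720.4 and 794 CPM in vehicle light libraries 1, 2 and 3 and at 4039.9, 2164 and 3463 CPM in the sorafenib light libraries. It rose by 2.20 ± 0.30 in log2 units (± SE, 3 libraries a group; edgeR adjusted p = 6.17e-05), with no overlap. ACTG1 was at 1859.6, 2072 and 2643 CPM with vehicle and 2542, 1139 and 3576 CPM with sorafenib. These groups overlapped, and the difference of 0.14 ± 0.36 (SE) did not pass (edgeR adjusted p = 0.790). ACTA1 was at 20.8, 38.6 and 28.2 CPM with vehicle and 358, 245 and 140.4 CPM with sorafenib, a log2 difference of 3.07 ± 0.33 (SE), again without a test and without overlap.

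PFN1 stood at 365, 479 and 732 CPM in the vehicle light libraries and at 1643, 1524 and 1277 CPM in the sorafenib light libraries. It rose there by 1.50 ± 0.29 in log2 units (± SE, 3 libraries a group; edgeR adjusted p = 0.00107), the opposite of its direction on polysomes. ACTN4 rose by 1.08 ± 0.24 (SE; edgeR adjusted p = 0.00257), and without the filter on low counts this rise of 0.92 did not pass (adjusted p = 0.0609). ACTN1 (0.55, edgeR adjusted p = 0.149), VCL (0.43, 0.388) and MYH9 (-0.24, 0.616) did not pass. For ACTN1 a rise passed on library totals (0.97, adjusted p = 0.0137) and without sorafenib light library 2 (0.82, adjusted p = 0.0312).

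FLNA was at 24.5, 24.6 and 43.0 CPM in the vehicle light libraries and at 11.2, 24.3 and 16.8 CPM in the sorafenib light libraries, which rest on 19, 13 and 72 counts. It fell by 0.91 ± 0.30 in log2 units (± SE, 3 libraries a group; edgeR adjusted p = 0.0296), and library 2 of the treated group came close to the lowest vehicle libraries. This call was lost on library totals (-0.47, adjusted p = 0.282), without vehicle light library 3 (-0.56, 0.186), without sorafenib light library 1 (-0.58, 0.231), without sorafenib light library 3 (-0.99, 0.056) and without both shallow libraries (-0.70, 0.181). DIAPH1 was at 30.7, 39.0 and 60.2 CPM with vehicle and at 14.7, 13.1 and 12.6 CPM with sorafenib, from 25, 7 and 54 counts. All 3 treated libraries were below all 3 vehicle libraries, a log2 difference of -1.69 ± 0.29 (SE), given without a test.

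**Figure D2:**
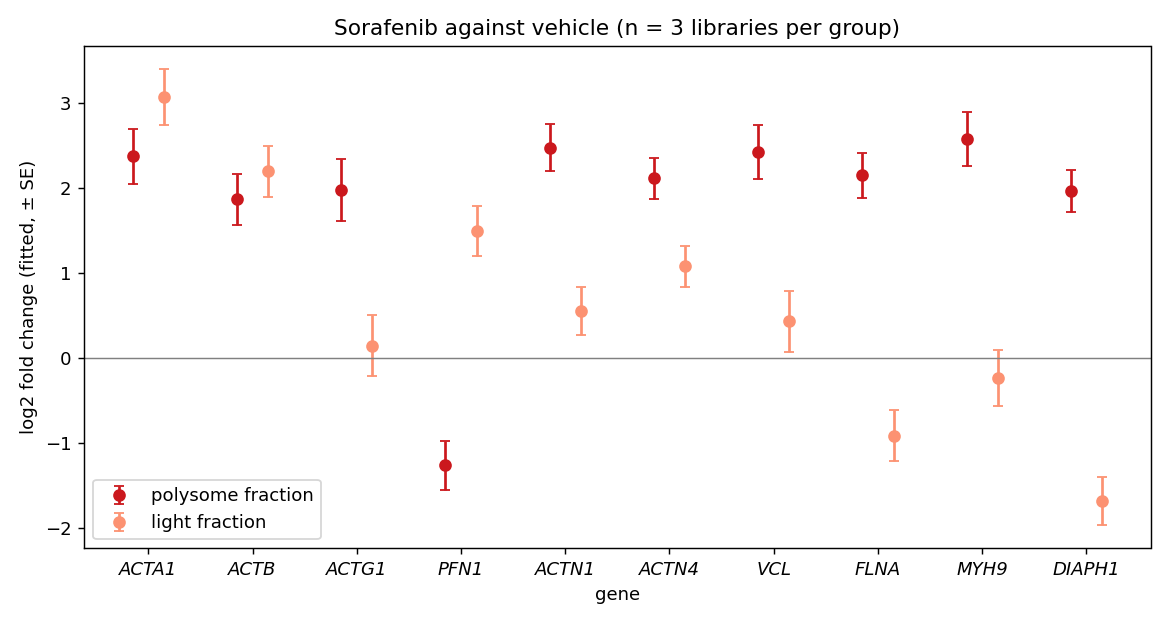
Fitted log2 fold change of sorafenib against vehicle (vertical axis, points with ± SE bars, 3 libraries per group) for each of the 10 genes, in the polysome and the light fraction. ACTB and ACTA1 are above 0 in both fractions, DIAPH1 is at 1.96 in the polysome and -1.69 in the light fraction, and PFN1 at -1.27 and 1.50.

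Whether sorafenib acted differently in the 2 fractions was tested as an interaction, the log2 difference in the polysome fraction minus that in the light fraction. Of the 8 tested genes, 6 had a positive and 1 a negative interaction in the edgeR quasi-likelihood test, against 12.8% and 10.7% of all genes (23.6% in all). FLNA had 3.06 ± 0.40 (SE; edgeR adjusted p = 6.59e-05), MYH9 2.81 ± 0.45 (edgeR adjusted p = 0.000261), VCL 2.00 ± 0.48 (edgeR adjusted p = 0.00529) and ACTN1 1.93 ± 0.39 (edgeR adjusted p = 0.00150). Of the cytoplasmic actins, ACTG1 had 1.83 ± 0.51 (SE; edgeR adjusted p = 0.0136), whereas ACTB at -0.33 ± 0.41 did not pass (edgeR adjusted p = 0.600). PFN1 was the negative one, at -2.76 ± 0.41 (SE; edgeR adjusted p = 0.000169). The interaction of ACTN4 was 1.04 ± 0.33 (SE; edgeR adjusted p = 0.0289). It did not pass on library totals (0.71, adjusted p = 0.138), without vehicle polysome library 3 (0.94, 0.0747), without sorafenib polysome library 1 (1.01, 0.0783) or 3 (1.07, 0.0664), or without both shallow sorafenib light libraries (1.14, 0.0601). DIAPH1 had a fitted interaction of 3.65 ± 0.38 and ACTA1 of -0.70 ± 0.44 (SE), both without a test.

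The ratio of fractions can be read within a culture, since the light and polysome libraries of a number and treatment came from 1 culture, while the treatments are separate cultures. The log2 of polysome over light CPM of FLNA was -0.44, -0.31 and -0.85 in vehicle cultures 1, 2 and 3 and 2.93, 1.69 and 2.66 in the sorafenib cultures. For DIAPH1 it was -0.98, -1.46 and -1.57 with vehicle and 2.02, 2.36 and 2.37 with sorafenib. Both were on the light side in each vehicle culture and on the polysome side in each sorafenib culture. MYH9 had -1.24, -0.23 and -1.33 with vehicle and 1.98, 1.00 and 2.54 with sorafenib, ACTN1 -0.62, -1.50 and -0.78 and 1.08, 1.10 and 1.01, and VCL -0.35, -1.95 and -0.81 and 2.00, 0.63 and 0.84. These 3 genes were likewise below 0 in the vehicle cultures and above 0 in the separate sorafenib cultures. ACTN4 had 0.06, -0.43 and -1.25 with vehicle, with culture 1 at the zero line, and 0.64, 0.25 and 0.51 with sorafenib.

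The actins differed from one another here. ACTB had 0.26, -0.02 and 0.02 in the vehicle and -0.40, -0.06 and -0.20 in the sorafenib cultures, near 0 in all 6 under TMM over 12 libraries. ACTG1 had -1.36, -1.98 and -1.59 with vehicle and 0.46, 0.87 and -0.37 with sorafenib, with sorafenib culture 3 below 0. ACTA1 was on the light side throughout, at -0.98, -1.43 and -1.39 and -2.17, -2.22 and -1.50. PFN1 had 1.98, 1.92 and 1.55, on the polysome side, with vehicle and -0.88, -1.19 and -0.92 with sorafenib. The mean over the 6 long binders minus the mean over the 3 actins was 0.05 ± 0.14 in the vehicle cultures and 2.15 ± 0.45 in the sorafenib cultures (SD, n = 3 each). Against ACTB and ACTG1 without ACTA1 it was -0.11 ± 0.18 and 1.48 ± 0.63. It is a description over chosen genes, and each library's scale factor cancels in it. DIAPH1 (mean -1.34 with vehicle and 2.25 with sorafenib) and ACTA1 (-1.26 and -1.96) were chosen by their values. DIAPH1 is among the binders in both versions.

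**Figure D3:**
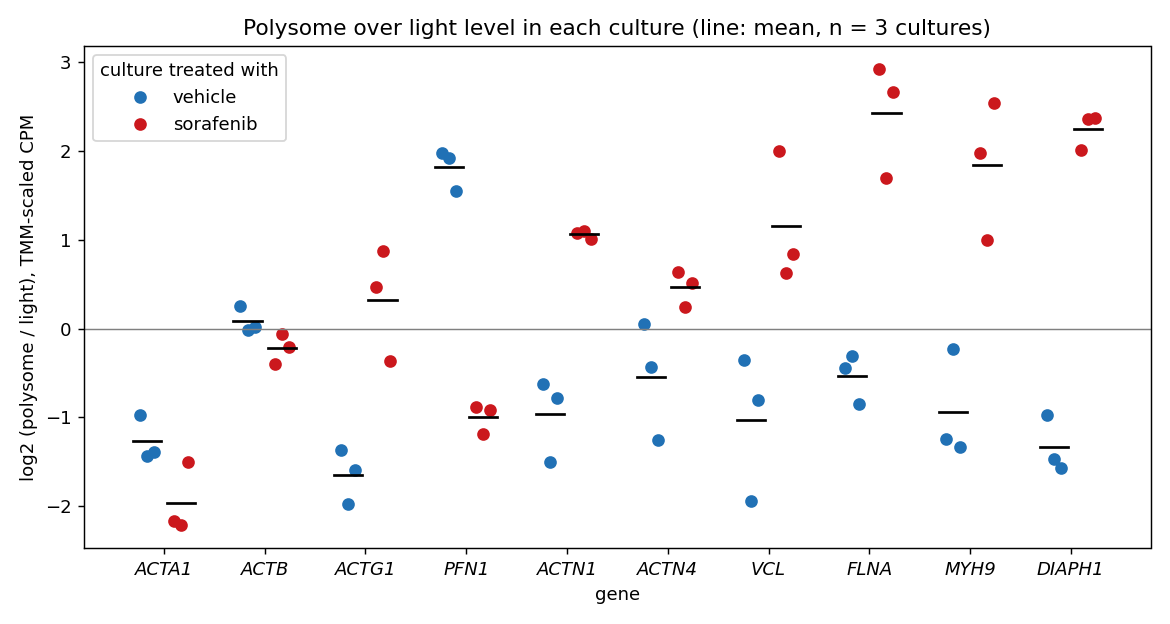
Log2 ratio of polysome to light TMM-scaled CPM (vertical axis) in each of the 6 cultures, by gene; points are cultures, lines are means of 3 cultures. The 6 long binders, at the right, lie higher in the sorafenib cultures than in the vehicle cultures, ACTB lies near 0 in both, and PFN1 lies above 0 with vehicle and below 0 with sorafenib.

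The edgeR comparison of the fractions called 1 gene higher and 4 lower on polysomes among the 8 tested with vehicle (18.3% and 17.8% of all genes), and 4 higher and 1 lower with sorafenib (13.4% and 12.4% of all genes). With vehicle the higher one was PFN1 at 1.78 ± 0.30 (SE; edgeR adjusted p = 0.000135), and the lower ones were ACTG1 at -1.63 (edgeR adjusted p = 0.00178), ACTN1 at -0.95 (0.00987), MYH9 at -0.92 (0.0239) and VCL at -0.91 (0.0361). With sorafenib the higher ones were FLNA at 2.49 ± 0.30 (SE; edgeR adjusted p = 2.54e-05), MYH9 at 1.89 ± 0.33 (0.000470), ACTN1 at 0.98 (0.0137) and VCL at 1.08 (0.0277), and the lower one was PFN1 at -0.99 (0.0177).

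These fraction calls depend on the scale set between fractions. The median of all genes was -0.06 with vehicle and -0.0037 with sorafenib under TMM over 12 libraries, 0.58 and 0.79 under TMM within each fraction, and 0.82 and 0.60 on library totals. Polysome-side genes were 50.8% and 51.9% of all calls under TMM, 84.0% and 90.5% within fractions and 89.3% and 85.9% on totals. ACTB with vehicle passed as higher on polysomes within fractions (0.72, edgeR adjusted p = 0.0469) and on totals (0.96, 0.00273). With sorafenib so did ACTG1 (0.99, 0.0260 and 0.81, 0.0451) and ACTN4 (1.26, 0.000317 and 1.02, 0.00231). Both scalings lost the calls of ACTN1, VCL and MYH9 with vehicle and of PFN1 with sorafenib, and totals that of ACTG1 with vehicle. For the sorafenib comparisons rises were 42.1% of polysome calls under TMM and 55.5% within fractions, and 39.8% of light calls under TMM and 73.5% on totals, where the light median was 0.31 against -0.12. For the interaction, positive calls were 54.5% under TMM, 64.6% within fractions and 33.6% on totals, where its median was -0.26 against 0.02. A value relative to the median of all genes leaves such a shift out by construction. On that measure, over 5 scalings, PFN1 lay 1.83 to 1.84 above it with vehicle and -1.05 to -0.97 from it with sorafenib, ACTG1 -1.57 to -1.56 with vehicle, and FLNA 2.49 to 2.50 with sorafenib.

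Some fraction calls also changed when a single library was left out, which refits the filter, scale and spread for all libraries. With vehicle 2 fewer genes passed without vehicle light library 2 or 3 or vehicle polysome library 2 (3 calls each), where VCL was lost in all 3 cases (-0.82, -0.85 and -0.65). ACTN1 was lost without library 2 of either fraction (-0.83 and -0.78), and MYH9 without vehicle light library 3 (-0.62). In these 3 runs calls over all genes dropped as well. They were 2026 higher and 1935 lower of 16312, 2236 and 2227 of 16268, and 2183 and 2035 of 16228. With all libraries they were 2742 and 2659 of 14955. VCL was also lost without vehicle light library 1 (-1.0) and sorafenib polysome library 3 (-0.91), and MYH9 without vehicle polysome libraries 1 (-0.64) and 3 (-0.94). With sorafenib 3 calls were left without sorafenib light library 1, where VCL (0.87) and PFN1 (-0.71) were lost, and 2 without sorafenib polysome library 3, where ACTN1 (0.90), VCL (1.09) and PFN1 (-0.86) were. Calls over all genes dropped there too, to 1681 higher and 946 lower of 15474 without sorafenib light library 1. Without sorafenib polysome library 3 they were 1459 and 1393 of 16332, against 2002 and 1855 of 14955 with all libraries. PFN1 was also lost without each vehicle light library (-0.71 each), sorafenib light library 3 (-0.75) and sorafenib polysome library 2 (-0.85). ACTN4 passed as higher without each vehicle light library (0.74 each) and without sorafenib light library 3 (0.81). Vehicle light libraries are no part of the sorafenib comparison. Without any 1 of them its median over all genes was 0.15, against -0.0037 with all libraries. That median was 0.15 without sorafenib light library 1 and 0.26 without sorafenib light library 3. Whether this shift has a part in the changed calls was not tested. FLNA and MYH9 kept their place on the polysome side with sorafenib in every such run.

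Ratios of counts within 1 library need no scaling between libraries and were looked at after the values above were seen, so they carry no test. In the vehicle light libraries ACTB had 0.321, 0.348 and 0.300 counts per ACTG1 count, and in the sorafenib light libraries 1.59, 1.90 and 0.968. On polysomes the ratio was 0.989, 1.35 and 0.920 with vehicle and 0.870, 0.999 and 1.09 with sorafenib. The ratio was lowest in the vehicle light libraries, which overlapped with no other group. Gene lengths are not part of these ratios, so they compare groups and not genes. PFN1 had 2.01, 2.54 and 2.66 counts per ACTB count on vehicle polysomes and 0.293, 0.322 and 0.225 on sorafenib polysomes, means of 2.40 ± 0.342 and 0.280 ± 0.0497 (SD, n = 3 each). The light-fraction ratio was 0.612, 0.664 and 0.922 with vehicle and 0.407, 0.704 and 0.369 with sorafenib, where the groups overlapped.

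**Figure D4:**
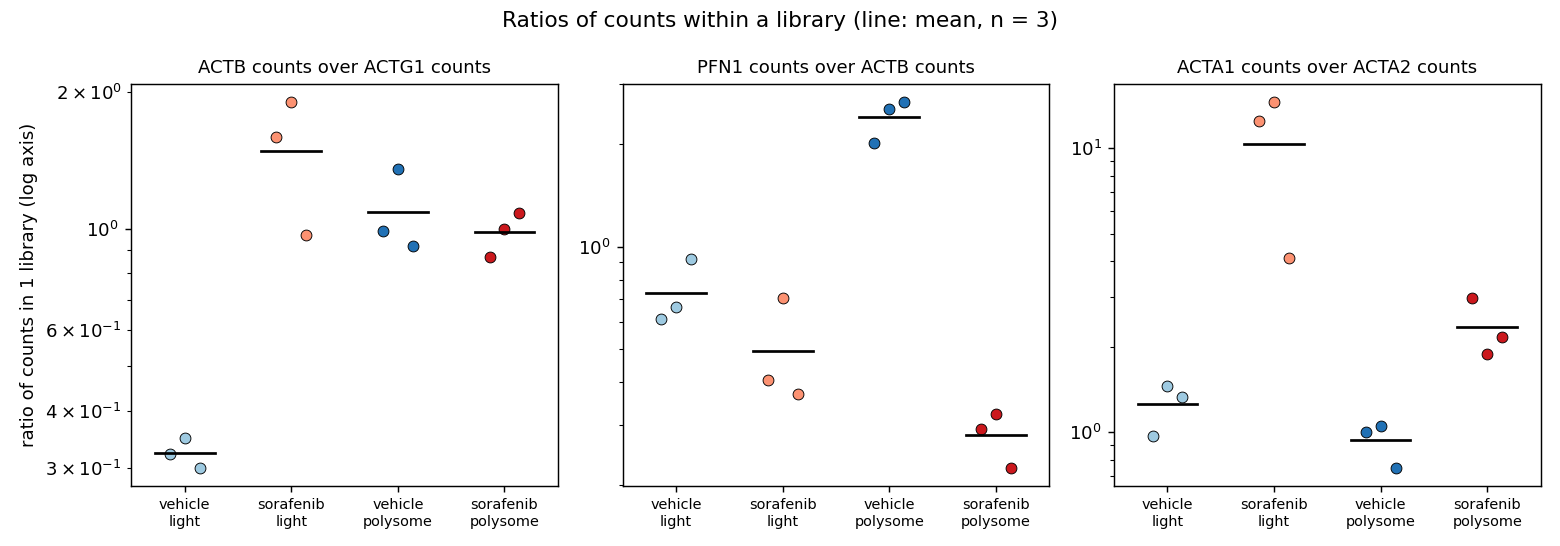
Ratios of counts within each library (log axis) for ACTB over ACTG1, PFN1 over ACTB and ACTA1 over ACTA2 in the 4 groups; points are libraries, lines are means of 3. The PFN1 over ACTB points on polysomes lie at 2.01, 2.54 and 2.66 with vehicle and 0.293, 0.322 and 0.225 with sorafenib.

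Actin genes are near-identical in sequence and have many processed copies, and the counting of reads that match several genes is unknown here, so the split among actins is uncertain. Of 51 actin and profilin pseudogene or POTE rows, 1 passed the filter, PFN1P1, and the highest count in any other was 20. PFN1P1 held 0.0098 to 0.0215 counts per PFN1 count over the 12 libraries and took the directions of PFN1 in both sorafenib comparisons (-1.07 ± 0.27 on polysomes, edgeR adjusted p = 0.00277, and 1.20 ± 0.31 in the light fraction, 0.00747). Its polysome fall did not pass without the filter on low counts (-0.66), nor its light rise without sorafenib light library 3 (1.02). ACTC1 and ACTBL2 had at most 3 counts in a library and ACTG2 at most 8. ACTA2, the smooth muscle actin, rose on polysomes by 1.03 ± 0.23 (SE; edgeR adjusted p = 0.00135) and did not pass in the light fraction (0.30, edgeR adjusted p = 0.381). On library totals its light difference of 0.72 passed.

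The counts of ACTA1 per ACTA2 count were 0.970, 1.45 and 1.33 in the vehicle light and 12.4, 14.6 and 4.12 in the sorafenib light libraries, and 1.00, 1.05 and 0.750 and 2.96, 1.89 and 2.17 on polysomes. The treated libraries were the higher ones in both fractions. The ratios of sorafenib light libraries 1, 2 and 3 rest on 49, 9 and 146 ACTA2 counts. Without both shallow libraries the log2 light difference of ACTA1 was 2.41, against 3.07 with all libraries. Of 21 skeletal muscle markers 7 passed the filter, and their summed level over all 21 was 25.8 to 36.1 CPM in the vehicle light, 37.6 to 183 in the sorafenib light, 30.4 to 72.8 in the vehicle polysome and 34.5 to 56.7 in the sorafenib polysome libraries. The 183 CPM was that of sorafenib light library 2, with 511065 counts in all, of which 37 were for TTN and 22 for TNNI2. The 37.6 CPM was that of sorafenib light library 3, the deepest of its group. Over all 12 libraries the regulators MYOG and MYOD1 had 1 and 6 counts. Of the 7 markers past the filter, TNNI2 had 3156 counts over the 12 libraries, up to 643 in sorafenib polysome library 1. The others had 238 (TTN), 220 (MYH3), 186 (TNNC2), 162 (CKM), 114 (TNNT1) and 90 (NEB). The smooth muscle and fibroblast list, which holds ACTA2, had 4 of 13 markers past the filter and a summed level of 36.9 to 52.9, 46.9 to 87.9, 20.2 to 33.5 and 40.9 to 45.7 CPM in the same order of groups. Whether these levels have a part in the values of ACTA1 was not tested.

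Of the other genes of the pathway, those that crosslink filaments or link them to adhesions mostly rose on polysomes. Without the 10 genes above, 18 of 31 rose and 1 fell, LCP1, against 20.9% and 28.8% of all genes, with a median of 1.10 against -0.26 for all genes. FERMT2, a kindlin of integrin adhesions, rose by 2.96, CTNNA1, the alpha-catenin of adherens junctions, by 2.46 and EZR, a membrane linker, by 2.37 on the log2 scale. Over 19 settings the rises numbered 16 to 25, and the fall of LCP1 (-1.30) passed in 5 of them. Light-fraction calls were 7 rises and 2 falls, with a median of 0.10 (11.7% and 17.7% of all genes, median -0.12), FERMT2 among the rises at 1.86 and EVL among the falls at -1.59. The rises there ran from 3 to 14 over the settings and numbered 4 without sorafenib light library 3. Of the falls 1 was left without any 1 of the vehicle light libraries or sorafenib light library 1 or 2. Light rises over all genes were 2053 of 16350 without sorafenib light library 3, against 1752 of 14955 with all libraries. In the runs with 1 fall, light falls over all genes numbered 1412 to 2319, against 2648. Of the interactions 13 were positive and none negative, against 12.8% and 10.7% of all genes.

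Of 32 genes for filament nucleation, 13 rose and 8 fell on polysomes, with a median of 0.14, against 20.9% and 28.8% of all genes, so that the share of falls was near that of all genes. The formins DIAPH3 (2.06) and DIAPH2 (2.56) and CYFIP1 (1.65), a subunit of the WAVE complex, rose. ARPC2 (-1.49) and ARPC4 (-0.96), subunits of the Arp2/3 complex, and BRK1 (-1.23), the small WAVE subunit, fell. Without the filter on low counts the falls of ARPC4 (-0.55) and BRK1 (-0.83) did not pass. DIAPH3 rose also in the light fraction (1.32), unlike the values of DIAPH1 there, while ARPC1A (-1.83) and ARPC1B (-1.75) fell. The Arp2/3 subunits ACTR3 (1.00) and ARPC3 (0.91) rose there, so subunits of this complex were split. Neither rise passed without the filter on low counts (0.90 and 0.82), nor without vehicle light library 1 or sorafenib light library 1 or 3. Mean polysome CPM of ACTR3 was 70.7 with vehicle and 179 with sorafenib, and that of ARPC3 213 and 116. This list had in the light fraction 6 rises and 6 falls, against 11.7% and 17.7% of all genes. The light rises numbered 2 without vehicle light library 1 and 3 without vehicle light library 2 or sorafenib light library 3. Over all genes they were 1322 of 16260, 1297 of 16312 and 2053 of 16350 in these runs, against 1752 of 14955. The 8 polysome falls became 4 without vehicle light library 1 or 2 and 5 without vehicle light library 3 or sorafenib light library 1. Light libraries are no part of the polysome comparison, and falls over all genes dropped as well. They numbered 2663 of 16260, 2577 of 16312 and 2836 of 16268 without vehicle light library 1, 2 and 3. Without sorafenib light library 1 they numbered 2951 of 15474, against 4306 of 14955 with all libraries.

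Among 31 genes for monomer binding, capping and turnover, the list to which PFN1 belongs, 12 rose and 10 fell on polysomes, with a median of 0.20. All genes rose in 20.9% and fell in 28.8% of cases, so the share of falls was near that of all genes. VIL1 (2.66) and GSN (2.57), which sever and cap filaments, and WDR1 (2.22), a cofactor of cofilin, rose. TMSB10 (-2.10), a small peptide that like profilin binds monomers, and LIMK1 (-1.67), a kinase of cofilin, fell. The number of falls was 4 without any 1 of the vehicle light libraries, without sorafenib light library 1 or 3 or without sorafenib polysome library 3, and 5 without vehicle polysome library 3 or sorafenib polysome library 1 or 2. In these runs falls over all genes dropped as well, to between 2577 and 3688, against 4306 with all libraries. On polysomes TMSB10, LIMK1 and the 3 named rises passed in all 19 settings. Light-fraction calls were 6 rises and 3 falls, against 11.7% and 17.7% of all genes. CFL1 (1.07) and GSN (1.04) were among the rises. The falls were LIMK1 (-1.81), SSH1 (-1.13) and TMSB10 (-1.09), so that TMSB10 fell in the fraction where PFN1 rose (1.50). Without the filter on low counts CFL1 (0.93), GSN (0.93) and SSH1 (-1.19) did not pass. TMSB10 did not pass on library totals (-0.64), nor without vehicle light library 3 or sorafenib light library 2 (-0.73 each). The light rises numbered 2 without vehicle light library 1 or sorafenib light library 3 and 12 without sorafenib light library 2, and 1 fall was left without vehicle light library 3. Light rises over all genes in these runs were 1322 of 16260, 2053 of 16350 and 2370 of 15224, against 1752 of 14955. Light falls over all genes were 2051 of 16268 without vehicle light library 3, against 2648.

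Of 34 other actomyosin genes, 11 rose and 6 fell on polysomes (median 0.39), against 20.9% and 28.8% of all genes. In the light fraction 9 rose and 2 fell (median 0.49), against 11.7% and 17.7%. Of the light falls none was left without vehicle light library 2 or sorafenib light library 1, and 1 without vehicle light library 1 or sorafenib light library 2 or 3. In these runs light falls over all genes numbered 1412 to 2319, against 2648 with all libraries. The myosin heavy chain MYH10 (1.86), a relative of MYH9, and MYO10 (2.27), a myosin of filopodia, rose on polysomes. The short light chain MYL6 fell on polysomes (-1.33) and rose in the light fraction (1.73), where MYL9 (2.06) and MYL12B (1.34), also light chains, rose too. The polysome fall of MYL6 did not pass without the filter on low counts (-0.93). The polysome rises numbered 17 without sorafenib light library 2 or 3. The 6 falls became 3 without any 1 of the vehicle light libraries, sorafenib light library 1 or 3, or sorafenib polysome library 1 or 3. Rises over all genes numbered 4232 and 4171 without sorafenib light library 2 and 3, against 3130 with all libraries. In the runs with 3 falls, falls over all genes numbered 2577 to 3245, against 4306.

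Of 16 genes for the chaperones that fold new actin, 7 rose and 3 fell on polysomes (median 0.19), against 20.9% and 28.8% of all genes, with the chaperonin subunits CCT2 (2.32), CCT7 (2.03) and CCT5 (1.94) among the rises. The falls were the prefoldin subunits PFDN4 (-1.43), PFDN5 (-1.13) and PFDN6 (-1.08). Without the filter on low counts PFDN5 (-0.73) and PFDN6 (-0.68) did not pass. Light-fraction PFDN2 (1.57) and PFDN6 (1.16) rose, within 5 rises and 1 fall (11.7% and 17.7% of all genes). The light rises numbered 3 without vehicle light library 1 or 2 or sorafenib light library 1 and 8 without sorafenib light library 2. The light fall was lost without vehicle light library 2 or 3, and without sorafenib light library 3 there were 2. In the runs with 3 light rises, those over all genes numbered 1297 to 1342, and without sorafenib light library 2 they numbered 2370, against 1752. Light falls over all genes were 1747 and 2051 without vehicle light library 2 and 3 and 2222 without sorafenib light library 3, against 2648.

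**Figure D5:**
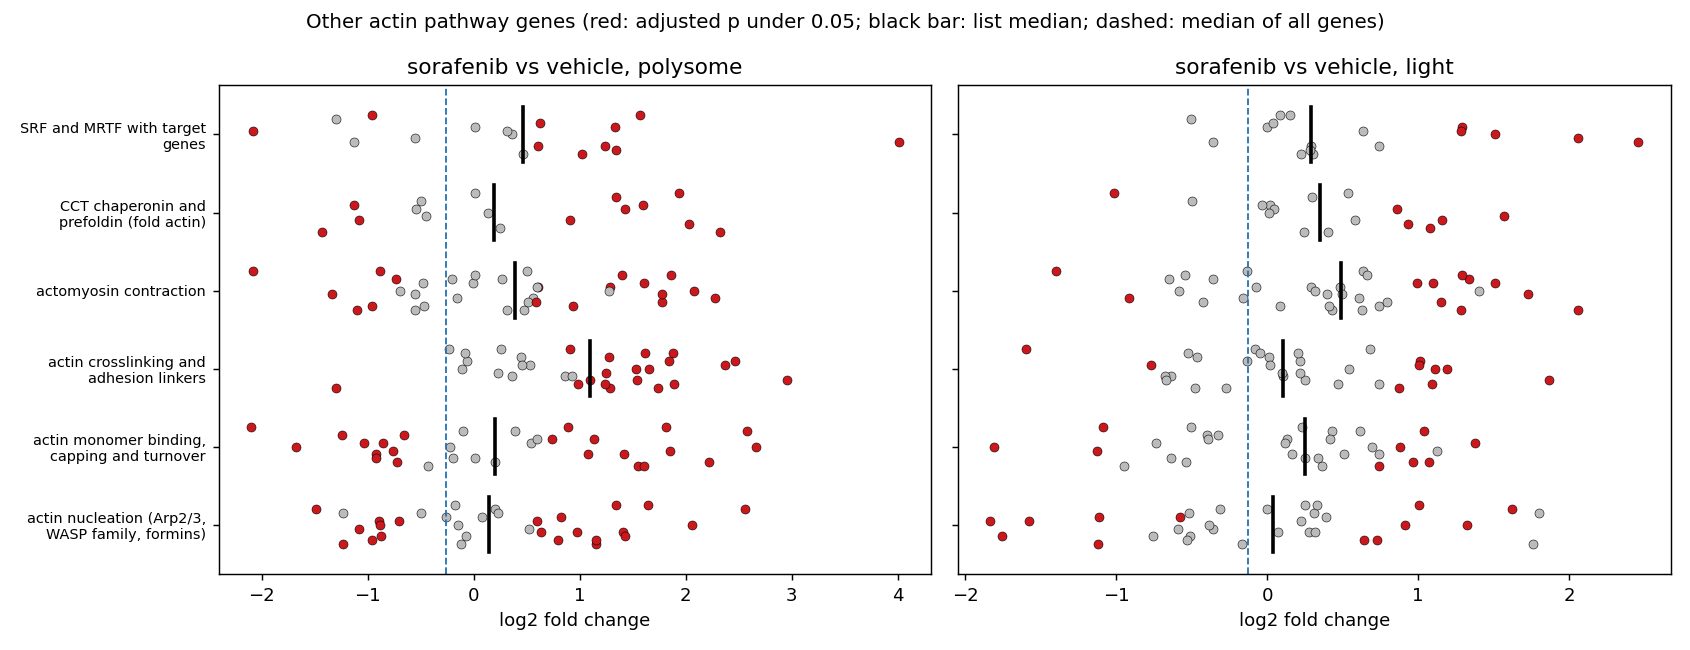
Log2 fold change of sorafenib against vehicle (horizontal axis) for the other genes of 6 actin lists, in the polysome and the light fraction; each point is a gene, red where the edgeR adjusted p is under 0.05, black bars are list medians and the dashed line is the median of all genes. The median of the crosslinking and adhesion list is 1.10 in the polysome fraction and 0.10 in the light fraction.

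Of 17 other genes for SRF, its coactivators and their targets, 8 rose and 2 fell on polysomes, with a median of 0.46 (20.9% and 28.8% of all genes, median -0.26). In that list 5 rose and none fell in the light fraction, with a median of 0.29 (11.7% and 17.7% of all genes, median -0.12). CCN1, a secreted target, rose in the light fraction by 2.46. The 2 polysome falls were those of TPM1 (-0.96) and CNN1 (-2.08). CNN1 did not pass in 10 of 12 runs with a library left out, nor TPM1 (-0.56) without the filter on low counts. The coactivator MRTFA rose on polysomes by 1.34 ± 0.33 (SE; edgeR adjusted p = 0.00274) and MRTFB by 0.62 ± 0.25 (edgeR adjusted p = 0.0460), whereas SRF itself at 0.46 ± 0.21 did not pass (edgeR adjusted p = 0.0778). None of these 3 passed in the light fraction (edgeR adjusted p = 0.617, 0.937 and 0.491). The polysome rises of the list numbered 5 without sorafenib polysome library 1 or 3. Its polysome falls numbered 4 without vehicle polysome library 1, and 1 without any 1 of the vehicle light libraries, sorafenib light library 1 or 3, vehicle polysome library 3 or sorafenib polysome library 2 or 3. Rises over all genes numbered 2448 and 2442 without sorafenib polysome library 1 and 3, against 3130 with all libraries. Falls over all genes numbered 4059 without vehicle polysome library 1 and 2577 to 3688 in the runs with 1 fall, against 4306. The light rises were 3 without vehicle light library 1 or sorafenib light library 1, where those over all genes numbered 1322 and 1342, against 1752. On polysomes the 4 genes with a CArG box in the window were at 2.37 (ACTA1), 1.98 (ACTG1), 2.15 (FLNA) and 2.47 (ACTN1, at 1 of its 4 starts). The 5 genes with none were at 2.11 (ACTN4), 2.43 (VCL), 2.58 (MYH9), 1.96 (DIAPH1) and -1.27 (PFN1). The light-fraction values in the same order were 3.07, 0.14, -0.91 and 0.55 with a box and 1.08, 0.43, -0.24, -1.69 and 1.50 without. The ranges of the 2 sets overlapped in both fractions.

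Over the 12 libraries, among 9397 genes whose mean log2 CPM was 3 or more, the genes closest in pattern to ACTA1 by Pearson correlation of log2 CPM were ILF2 (0.964), BCL3 (0.958), SAMM50 (0.950), DNAJA2 (0.944) and SRP72 (0.942). For DIAPH1 they were USP24 (0.950), PDCD11 (0.947), PFAS (0.939), OGDH (0.931) and ITGAV (0.930), the last an integrin subunit. The libraries share treatment, fraction and scaling, and the correlations describe likeness over the 4 groups.

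Some of these genes overlap others in the RefSeq annotation of GRCh38.p14, and the use of strand in counting is unknown here. AP3M1, which overlaps VCL, had up to 387 counts in a library, HMGN1P3, which overlaps ACTN1, up to 44, and CAPN12, which overlaps ACTN4, up to 16.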

How the data were processed

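The authors deposited raw counts, whole numbers for each gene in 12 libraries; the labels call the series ribosome profiling, although their protocols describe libraries from RNA of pooled gradient fractions. Reads were assigned on GRCh38.p12 per the submitters' processing notes. Aligner, counter, annotation and strand setting: not given in the sources used here. Coordinates and overlaps of genes come from RefSeq GRCh38.p14.

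Counts were tested with edgeR 4.0.16 (limma 3.58.1, R 4.3.3): filterByExpr on the 4 groups left 14955 of 57353 rows, TMM factors ran from 0.637 to 1.41, and the quasi-likelihood test used all 12 libraries with 1 mean per group, no block with calls at an adjusted p (Benjamini-Hochberg) under 0.05. Variation between replicates was 0.245 as edgeR's common coefficient. Standard errors were derived from each log2 fold change and its F statistic. Log2 CPM used a prior count of 2. The fit was tested on simulated data. DESeq2 1.42.0 served as an alternative, with other scalings, filters, blocks and left-out libraries. Figures were drawn with matplotlib 3.10.9.

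The 10 genes and all lists were chosen with earlier results of these data known. Named were the 10 genes, the 3 genes of each list with the smallest p per direction in each sorafenib comparison (not all are printed, and those left out were picked with their values known), actin isoforms and pseudogenes past the filter, SRF, MRTFA and MRTFB, and the 5 genes most like ACTA1 and DIAPH1. No transcript or protein lengths were used.

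Light and polysome libraries of the same number and treatment share 1 culture according to the labels, and after subtraction of group means they correlated at 0.14, -0.07 and 0.33 in vehicle and 0.05, 0.04 and 0.04 in sorafenib cultures. The labels speak of triplicate experiments; if the cultures were not separate, the p-values reflect technical spread. Replicates of a group were no repeat of 1 library (chi-square over degrees of freedom 8.71 to 49.0). Depth limits low genes most in the sorafenib light fraction, where VCL had 10, 10 and 68 counts.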

Additional observations from a re-analysis of the deposited data

Results flagged for a closer look

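The effect of sorafenib differed between the polysome and the light fraction by an edgeR interaction test for 7 genes. On the log2 scale, polysome minus light, the difference was 1.83 for ACTG1, 1.93 for ACTN1, 1.04 for ACTN4, 2.00 for VCL, 3.06 for FLNA, 2.81 for MYH9 and -2.76 for PFN1 (edgeR adjusted p = 0.0136, 0.00150, 0.0289, 0.00529, 6.59e-05, 0.000261 and 0.000169). DIAPH1, at 3.65, was higher in each treated polysome library than in every vehicle polysome library, and lower in each treated light library than in every vehicle light library. That difference was not tested, since DIAPH1 was chosen for its values.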

How the results depend on the processing

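Over 19 settings for the sorafenib comparisons and 20 for the others, the genes called numbered 7 to 8 on polysomes, 3 to 5 in the light fraction and 6 to 7 for the interaction. The fraction comparisons moved more. With vehicle 5 calls became 3 (2 higher) under TMM within each fraction, 2 on library totals and 2 without the low-count filter, and 3 to 5 with a library left out. With sorafenib 5 calls became 2 without both shallow light libraries and 2 to 5 with a library left out. With the number or the culture as a replicate block, the calls stayed at 8 on polysomes and 4 in the light fraction (number block), and at 5, 5 and 7 for vehicle fractions, sorafenib fractions and the interaction; no call of the 8 tested genes changed under a block. Over all genes, calls ranged from 5567 to 7828 on polysomes (7436), 2754 to 4966 in the light fraction (4400), 3940 to 8190 between vehicle fractions (5401), 2161 to 7781 between sorafenib fractions (3857) and 2461 to 4266 for the interaction (3528). Directions turned in some settings, for values near 0 and for others further from it. In the fit used above, polysome over light with vehicle was -0.87 for ACTA2 (edgeR adjusted p = 0.00721), -0.57 for FLNA and -0.56 for ACTN4. With sorafenib it was -0.54 for PFN1P1, and the interaction of ACTA1 was -0.70. Polysome over light with sorafenib became 0.54 within fractions, 0.34 on totals and 0.38 unfiltered for ACTB (left-out libraries -0.33 to 0.13), 0.65, 0.46 and 0.46 for ACTA2 (-0.16 to 0.40), 0.25, 0.069 and 0.063 for PFN1P1, and -0.23 without both shallow libraries for ACTG1 (left-out libraries -0.0053 to 0.91). With vehicle it became 0.087 within fractions and 0.31 on totals for ACTN4, 0.068 and 0.32 for FLNA and 0.011 on totals for ACTA2 (left-out libraries -0.96 to -0.71). The interaction became 0.20 unfiltered for ACTB (left-out libraries -0.43 to 0.020) and 0.23 without both shallow libraries for ACTA1 (left-out libraries -0.91 to -0.12). The light difference became 0.24 on totals for MYH9 (left-out libraries -0.40 to 0.072) and ran from -0.26 to 0.61 with a library left out for ACTG1. For the low-count filter and left-out libraries the cause was not tested. The comparison by protein length was not run.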
